A study of Homo sapiens with 12 samples.

Results

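The genes described here encode the proteins of the mitochondrial ribosome. They were taken as the protein-coding genes whose symbols begin with MRPL or MRPS and a number, which gave 78 genes out of 60617 rows of the count table. The table holds 164 rows with such a symbol, of which 79 are pseudogenes, and the rows that are not protein-coding were left out. All 78 genes passed the filter on low counts that left 20360 genes for testing, and the lowest value of any of them in any library was 162 counts. By the structural names of the human mitochondrial ribosome, 51 of them encode large-subunit proteins and 26 encode small-subunit proteins. The large-subunit count includes MRPS30 and MRPS18A, which were once assigned to the small subunit. MRPS36 keeps a ribosomal symbol but encodes a subunit of the oxoglutarate dehydrogenase complex, and it is counted with the 78 and with neither subunit.

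Polyadenylated RNA was sequenced from NCI-H295R, an established line of human adrenocortical carcinoma cells able to produce steroids, in 4 groups of 3 libraries each. The EZH2i group received 62 µM EPZ-6438, an inhibitor of the histone methyltransferase EZH2, for 96 h. The CBPi group received 26 µM PRI-724, an inhibitor of the interaction of CBP with β-catenin, for 96 h. Both doses are IC50 doses according to the labels. The FSK group received DMSO for 48 h and then 10 µM forskolin, an activator of adenylyl cyclase, for 48 h, and the baseline group received DMSO alone for 96 h. All libraries come from this one line, so the p-values measure the spread between replicate cultures of it.

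Library totals, in units of 1e+06 counts, were 29.5 to 31.5 with EZH2i, 20.6 to 28.8 with CBPi, 23.4 to 25.4 with FSK and 21 to 27 at baseline. Adrenocortical markers were detected in every group, most of them at lower levels with the inhibitors, but MC2R with CBPi was close to the floor. NR5A1, the steroidogenic master regulator, averaged 351 CPM with EZH2i, 323 CPM with CBPi, 781 CPM with FSK and 588 CPM at baseline. HSD3B2, an enzyme of steroid synthesis, averaged 3.94, 3.54, 162 and 78.5 CPM in the same groups, CYP17A1 13.1, 4.25, 136 and 63.4 CPM, and the ACTH receptor MC2R 0.99, 0.18, 10.6 and 3.53 CPM, whereas NR0B1 was higher with EZH2i, at 20.4, 8.72, 3.04 and 10.3 CPM. CPM stands for counts per 1e+06 counts of a library, after scaling by TMM (trimmed mean of M values). Of the markers of other cell types, PTPRC, CD3E, TH, DBH, PNMT, PECAM1, CDH5 and PDGFRB reached at most 4 counts in any library. Others were detected: CHGA reached 175 counts, KDR 106 counts (2.97 CPM with EZH2i against 0.428 CPM at baseline), VWF 27 and CD68 25.5 counts. COL1A1, COL3A1 and CD79A averaged 16.6, 10.9 and 9.86 CPM with EZH2i, 10.1, 5.09 and 2.66 CPM with CBPi, 6.52, 3.48 and 7.51 CPM with FSK, and 16.4, 15.7 and 9.89 CPM at baseline. The part of these differences in the results was not tested. CPM are shares of each library, so fewer transcripts per cell and more RNA of other genes cannot be told apart, and neither can fewer cells of a kind and less RNA per cell.

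Mitochondrial ribosomes translate the few messenger RNAs that mitochondrial DNA encodes, all of them for subunits of the respiratory chain and ATP synthase. Their rRNAs also come from mitochondrial DNA, but every one of their proteins is encoded in the nucleus, made in the cytosol and imported. Some of these proteins descend from bacterial ribosomal proteins and others arose in mitochondria. In steroid-producing cells mitochondria house the side-chain cleavage enzyme and other cytochromes P450 of steroid synthesis.

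EZH2i and CBPi both lowered most of these genes, and FSK moved them in both directions by small amounts. With EZH2i against baseline, 74 of the 78 (94.9%) fell and 4 did not pass the test, whereas 28.3% of all genes tested fell and 29.5% rose. Calls are from the quasi-likelihood test of edgeR, with p-values adjusted by the Benjamini-Hochberg method over all 20360 genes and a threshold of 0.05. No member rose with EZH2i by this test, at an unadjusted p under 0.05, by DESeq2 or by limma voom (0 in each case). The median log2 fold change was -0.53 (0.692-fold), the range was -1.58 to -0.03, and the median over all genes tested was 0.024. With CBPi 64 of the 78 (82.1%) fell, 1 rose and 13 did not pass, against 29% of all genes that fell and 29.8% that rose. Their median was -0.4 (0.758-fold) and their range -1.3 to 0.17. With FSK 18 of the 78 (23.1%) fell, 20 (25.6%) rose and 40 did not pass, and the shares of all genes were close to these, at 25.1% and 25.5%. The FSK median was -0.02 and the range -0.41 to 0.44. The 3 comparisons share the baseline libraries.

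The summed level of the 78 genes was 3182, 3279 and 3314 CPM in the EZH2i libraries, 3429, 3499 and 3628 CPM with CBPi, 4891, 4513 and 4755 CPM with FSK, and 4500, 4735 and 4876 CPM at baseline. Every EZH2i and CBPi library lay below every baseline library, while the FSK and baseline libraries overlapped. Relative to the baseline mean of 4704 ± 190.0 CPM (SD, n = 3), the sums were 0.693-fold with EZH2i, 0.748-fold with CBPi and 1-fold with FSK. After TMM scaling these sums correspond to 0.326% of a library with EZH2i, 0.352% with CBPi, 0.472% with FSK and 0.47% at baseline. These are not shares of the raw counts. The TMM factors were 0.9538 to 0.9716 with FSK and 1.007 to 1.011 at baseline, so the raw share with FSK is lower than the value given.

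**Figure D1:**
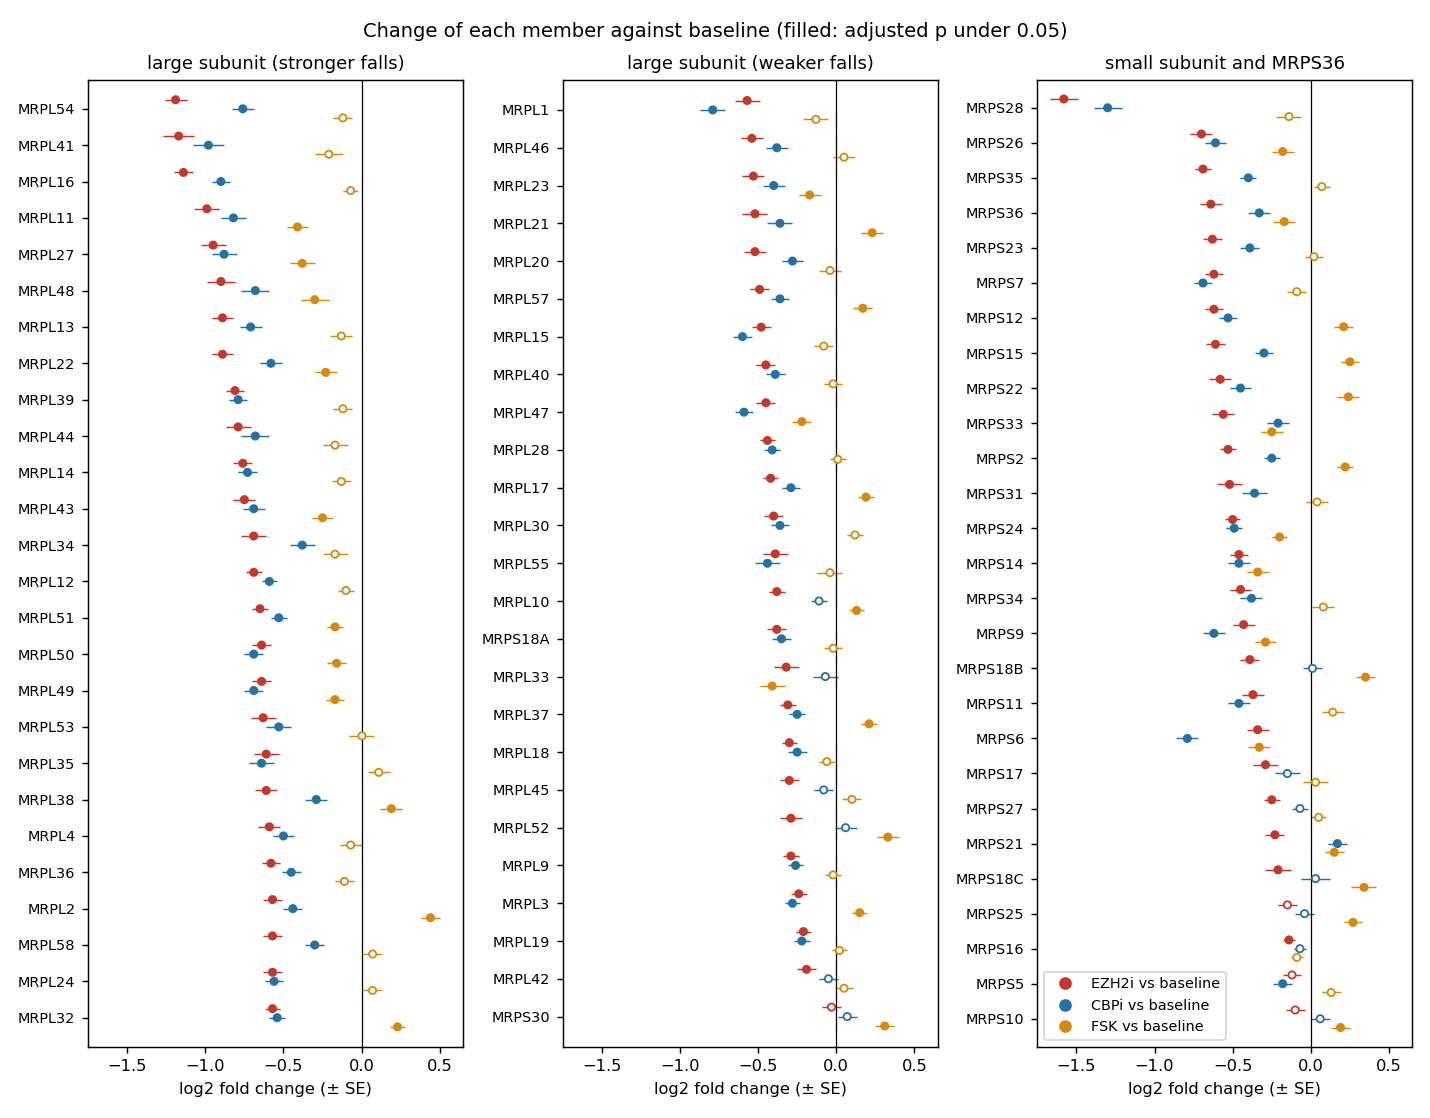
log2 fold change against baseline of each of the 78 genes with EZH2i, CBPi and FSK (error bars, SE), with large-subunit genes in the left and middle panels and small-subunit genes and MRPS36 in the right panel. Filled points passed the test: 74 EZH2i points and 64 CBPi points lie to the left of 0 and are filled, while the filled FSK points lie on both sides.

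Sizes were moderate. A test against a fold of 1.5 called 14 members lower and 0 higher with EZH2i, where it called 4.79% of all genes lower and 6.62% higher. With CBPi it called 10 members lower and 0 higher, where it called 6.14% of all genes lower and 6.09% higher. With FSK this test called 0 members in either direction, also at an unadjusted p under 0.05, against 6.45% of all genes lower and 5.34% higher. Leaving out 1 library at a time, the counts of lower members ranged from 10 to 16 with EZH2i and from 8 to 12 with CBPi.

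Genes of the large subunit had a lower median than those of the small subunit under both inhibitors, with wide overlap of single genes. With EZH2i 50 of 51 large-subunit genes and 23 of 26 small-subunit genes fell, and the median log2 fold changes were -0.57 and -0.45. CBPi lowered 45 of 51 and 18 of 26, with medians of -0.44 and -0.37. The difference between subunits was not tested. By ancestry, EZH2i lowered all 30 large-subunit genes with a bacterial homologue (median -0.55) and 20 of the 21 that are specific to mitochondria (median -0.61), and no member of either class rose. In the small subunit 14 of 16 genes with a bacterial homologue (median -0.4) and 9 of 10 mitochondria-specific genes (median -0.54) fell. The order of these medians did not hold with CBPi. In the large subunit CBPi lowered 28 of 30 genes with a bacterial homologue (median -0.45) and 17 of 21 mitochondria-specific genes (median -0.39). In the small subunit it lowered 11 of 16 (median -0.38) and 7 of 10 (median -0.37). Differences by ancestry were not tested.

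The upstream sequences of members at both ends of the response are given to show what kind of promoters these are. RefSeq promoter windows (GRCh38.p14, 250 bases before to 50 after the start) were found for 69 of the 78 genes. Each line below is the 120 bases before the start, 5′ to 3′ on the gene's strand. Capitals mark CCGGAAG on either strand, the core that ETS factors such as GABPA bind. MRPL54, MRPL41 and MRPL16 had the largest falls with EZH2i among members with a window, MRPS30 and MRPS10 the smallest changes, and MRPS18B and MRPL11 the largest rise and fall with FSK.
MRPL54: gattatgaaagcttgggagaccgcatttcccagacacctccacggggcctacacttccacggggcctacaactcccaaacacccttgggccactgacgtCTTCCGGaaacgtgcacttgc
MRPL41: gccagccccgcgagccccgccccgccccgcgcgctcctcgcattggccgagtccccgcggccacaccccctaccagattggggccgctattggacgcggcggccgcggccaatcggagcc
MRPL16: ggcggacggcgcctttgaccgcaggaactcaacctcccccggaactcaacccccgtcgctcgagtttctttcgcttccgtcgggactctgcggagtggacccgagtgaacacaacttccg
MRPS30: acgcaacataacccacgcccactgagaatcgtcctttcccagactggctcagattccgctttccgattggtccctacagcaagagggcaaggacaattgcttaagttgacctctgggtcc
MRPS10: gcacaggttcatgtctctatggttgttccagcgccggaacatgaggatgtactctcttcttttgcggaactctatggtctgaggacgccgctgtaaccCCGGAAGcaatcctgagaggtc
MRPS18B: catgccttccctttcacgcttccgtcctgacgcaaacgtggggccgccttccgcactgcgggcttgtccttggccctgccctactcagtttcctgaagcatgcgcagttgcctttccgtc
MRPL11: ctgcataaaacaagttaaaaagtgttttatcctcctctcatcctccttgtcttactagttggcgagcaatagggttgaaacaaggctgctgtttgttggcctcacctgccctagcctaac
The windows lie at chr19:3762562-3762681 (plus strand), chr9:137551759-137551878 (plus), chr11:59810779-59810898 (minus), chr5:44808827-44808946 (plus), chr6:42217862-42217981 (minus), chr6:30617720-30617839 (plus) and chr11:66438849-66438968 (minus), in the order of the lines. A CCGGAAG also spans the start of MRPL16, from 6 bases before it.

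ETS and YY1 letters were in a larger share of these promoters than of all promoters. CCGGAAG was in the 300-base window of 29 of the 69 genes (42%), against 17.5% of 12660 promoters of tested genes and 10.7% of 27305 promoters in all. AAGATGGC, the letters YY1 binds, was in 20 of them (29%), against 4.92% and 3.03%. The end of the first motif, AAG, is the start of the second, and 8 windows held both. Overlapping and separate matches were not counted. In the window of MRPS10, 1 of the 8, they were separate, with CCGGAAG from 22 bases before the start and AAGATGGC 9 bases after it. An NRF1 motif was in 9 windows (13%), close to the 15% of promoters of tested genes. The cAMP response element TGACGTCA and the TCF and LEF letters AGATCAAAG were in 0 of the 69 windows, against 3.21% and 0.229% of promoters of tested genes. CAAGGTCA, the letters NR5A1 binds, was in 1 window, that of MRPL34. Both strands were searched for every motif. With EZH2i the median log2 fold change was -0.52 for the members with CCGGAAG and -0.52 for those without, and with CBPi it was -0.38 and -0.45. For AAGATGGC the medians were -0.51 with it and -0.53 without it under EZH2i, and -0.36 and -0.4 under CBPi. The differences between these medians were not tested. A match is a description of letters and no evidence of binding.

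Baseline levels set the scale on which these changes took place. Per kilobase of deposited gene length, levels at baseline ranged from 378 CPM per kb for MRPL41 to 3.36 CPM per kb for MRPL46. MRPL41 (mL41, a mitochondria-specific large-subunit protein) stood alone at the top. MRPL51 followed at 122 ± 6.89 CPM per kb, and then MRPS26 at 78.6 ± 3.27, MRPS35 at 78.1 ± 3.05 and MRPS34 at 75 ± 5.37 CPM per kb (SD, n = 3), 3 neighbours within each other's spread. At the low end, MRPS5 at 5.43 ± 0.219, MRPS18C at 5.28 ± 0.386 and MRPL19 at 5.16 ± 0.169 CPM per kb were likewise not separated, nor were MRPL42 at 3.37 ± 0.224 and MRPL46 at 3.36 ± 0.0408. Under EZH2i MRPL41 remained the highest member at 168 CPM per kb and MRPL46 the lowest at 2.3 CPM per kb. The deposited length is that of all exons of a gene together, so it understates the level of genes with many alternative exons.

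MRPS28 had the lowest ratio to baseline of the 78 under both inhibitors. It encodes bS1m, a small-subunit protein. Its level was 6.39, 6.49 and 6.26 CPM in the EZH2i libraries, 7.85, 7.83 and 7.65 CPM with CBPi, 18.5, 15.5 and 18.2 CPM with FSK, and 18.1, 18.5 and 20.8 CPM at baseline. All 6 inhibitor libraries lay below all FSK and baseline libraries. The log2 fold change was -1.58 ± 0.09 with EZH2i (SE, adjusted p = 4.67e-12) and -1.3 ± 0.09 with CBPi (adjusted p = 9.4e-11), which is 0.334-fold and 0.407-fold. A readthrough gene, AC036214.3, covers 35.8% of the exonic bases of MRPS28 and moved with it, at -1.08 with EZH2i and -1.05 with CBPi, so reads in the shared part cannot be assigned to one of them. Of the members, 54 had fractional counts in the deposited table.

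Next among the EZH2i falls came a pair of mitochondria-specific large-subunit genes. MRPL54 (mL54) had 23, 25.1 and 24.1 CPM with EZH2i, 33.6, 30.5 and 33.1 CPM with CBPi, 51.5, 50.3 and 49.6 CPM with FSK, and 48.5, 55.8 and 60.2 CPM at baseline. MRPL41 had 91.9, 99.5 and 102 CPM with EZH2i, 113, 90.2 and 130 CPM with CBPi, 194, 180.0 and 194 CPM with FSK, and 216, 220.0 and 223 CPM at baseline. Both genes were lower in every inhibitor library than in any FSK or baseline library, and the EZH2i libraries of MRPL54 also lay below its CBPi libraries. The log2 fold changes with EZH2i were -1.19 ± 0.07 for MRPL54 (adjusted p = 1e-11) and -1.17 ± 0.1 for MRPL41 (adjusted p = 3.35e-07). With CBPi they were -0.76 ± 0.07 and -0.98 ± 0.1. MRPL54 was the member with the largest fall in EZH2i against CBPi, at -0.43 (adjusted p = 5.09e-05). The adjusted p of MRPL41 with FSK was 0.0779 at a log2 fold change of -0.21, and it passed as lower with library size only, no filter, limma voom, DESeq2 or a fit of only the FSK and baseline libraries, at -0.28 to -0.22.

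**Figure D2:**
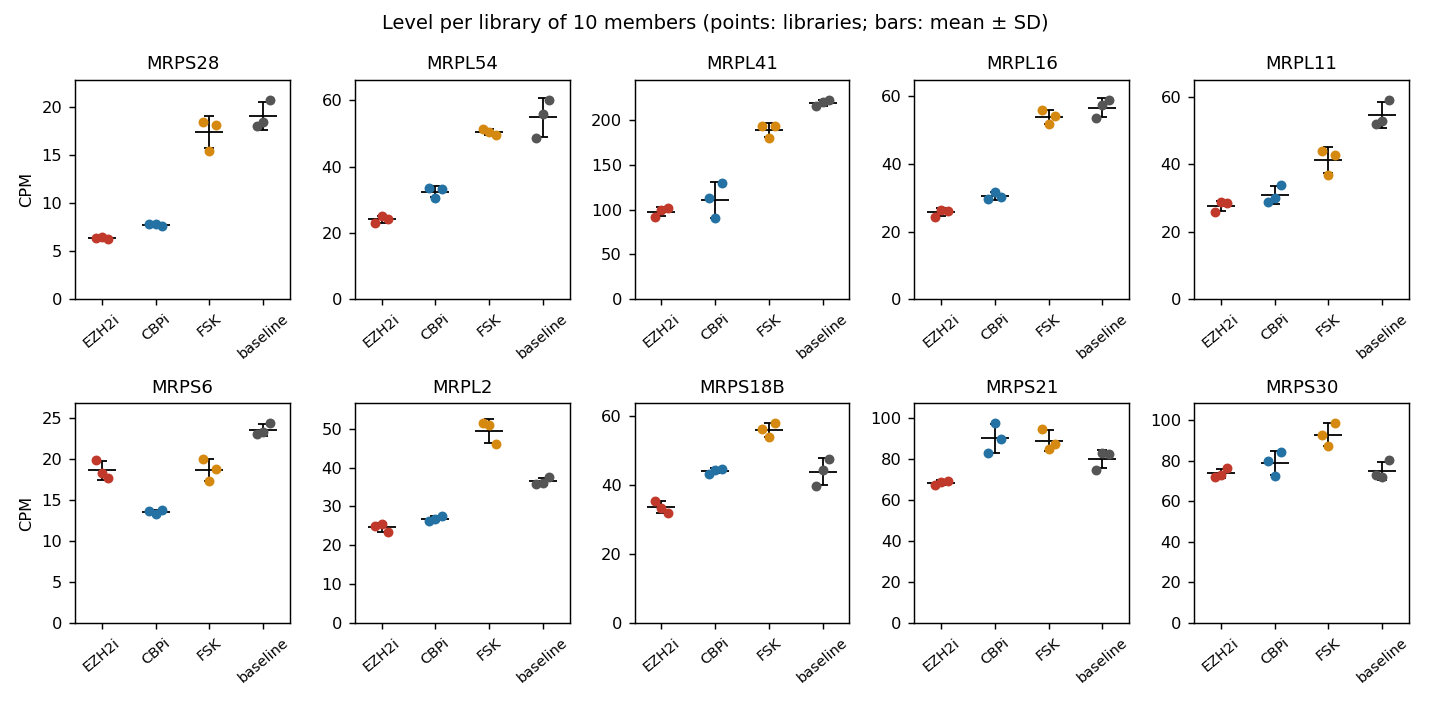
CPM of 10 of the genes in each library, by group, with the mean and SD of the 3 libraries of a group. In the upper row the EZH2i and CBPi points lie below all FSK and baseline points, and in the lower row MRPS6 is lowest with CBPi, MRPL2 and MRPS18B are highest with FSK, and MRPS30 has overlapping EZH2i, CBPi and baseline points.

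MRPL16 and MRPL27 encode proteins near the catalytic centre. MRPL16 (uL16m), which lies near the sites where tRNAs bind the large subunit, had 24.3, 26.5 and 26.2 CPM with EZH2i, 29.6, 31.7 and 30.1 CPM with CBPi, 55.9, 51.7 and 54.2 CPM with FSK, and 53.6, 57.3 and 59 CPM at baseline. Its inhibitor libraries did not overlap the others, and its log2 fold changes were -1.14 ± 0.06 with EZH2i (adjusted p = 1.02e-12) and -0.9 ± 0.06 with CBPi (adjusted p = 4.2e-11). MRPL27 (bL27m), whose bacterial homologue reaches into the peptidyl transferase centre, had 20.4, 20.7 and 20.5 CPM with EZH2i, 19.4, 25 and 20.1 CPM with CBPi, 33.1, 28.1 and 30.3 CPM with FSK, and 36.7, 39.6 and 42.4 CPM at baseline. It was lower than baseline in all 9 treated libraries, with log2 fold changes of -0.95 with EZH2i, -0.88 with CBPi and -0.38 with FSK (adjusted p = 5.94e-09, 2.1e-08 and 0.000604).

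MRPL11 (uL11m) lies at the base of the stalk that recruits translation factors. It had 25.8, 28.7 and 28.4 CPM with EZH2i, 28.8, 30.0 and 33.9 CPM with CBPi, 44.1, 36.8 and 42.9 CPM with FSK, and 52.1, 53 and 59.2 CPM at baseline. No treated library reached the baseline range, and the log2 fold changes were -0.99, -0.82 and -0.41 with EZH2i, CBPi and FSK. MRPL12 (bL12m), the stalk protein itself, fell by 0.69 with EZH2i and by 0.59 with CBPi on the log2 scale, and the readthrough gene AC139530.2, which covers 68.2% of its exonic bases, was at -0.67 and -0.68. MRPL10 (uL10m), which holds the stalk protein, fell by 0.38 with EZH2i, while its CBPi change of -0.11 had an adjusted p of 0.0505. MRPL1 (uL1m), of the stalk on the other side of the subunit, was lowered more by CBPi than by EZH2i, at -0.79 and -0.57, and the difference between the inhibitors was 0.22 (adjusted p = 0.032). It was 1 of 3 members called higher with EZH2i than with CBPi. That count was 1 without EZH2i replicate 3, CBPi replicate 1 or CBPi replicate 3.

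Genes for proteins around the exit tunnel and the membrane anchor fell with EZH2i by differing amounts. MRPL22 (uL22m) was at -0.89 with EZH2i and -0.58 with CBPi, MRPL23 (uL23m) at -0.53 and -0.4, and MRPL47 (uL29m) at -0.45 and -0.59, and all 6 changes passed. MRPL45 (mL45), which ties the ribosome to the inner membrane, fell by 0.3 with EZH2i, and its CBPi value was -0.08 (adjusted p = 0.248). MRPL58 (mL62), a peptidyl-tRNA hydrolase built into the large subunit, fell by 0.57 with EZH2i and by 0.3 with CBPi. MRPL13, MRPL39, MRPL44, MRPL48 and MRPL14, which complete the large-subunit genes at or beyond -0.76 with EZH2i, were at -0.89, -0.81, -0.79, -0.9 and -0.76.

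In the small subunit the log2 fold changes with EZH2i had quartiles of -0.6 and -0.26, against -0.69 and -0.4 in the large subunit. MRPS26, MRPS35 and MRPS34, the most abundant small-subunit genes per length, fell by 0.7, 0.69 and 0.45 with EZH2i and by 0.61, 0.4 and 0.38 with CBPi. MRPS22, MRPS15, MRPS33, MRPS24 and MRPS14 fell by 0.46 to 0.61 with EZH2i. MRPS36, the dehydrogenase subunit, had 20.2, 19.7 and 19 CPM with EZH2i, 23.3, 24.3 and 25.4 CPM with CBPi, 28.8, 24.7 and 27.9 CPM with FSK, and 27.9, 31.5 and 32.4 CPM at baseline. It thus moved within the range of the ribosomal genes, at -0.64 with EZH2i and -0.33 with CBPi. Its FSK call (-0.17, adjusted p = 0.0429) did not pass without baseline replicate 2 or 3, or without FSK replicate 2 or 3.

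MRPS18 has 3 human paralogues. MRPS18A (mL66) sits in the large subunit, while MRPS18B (mS40) and MRPS18C (bS18m) sit in the small subunit. MRPS18B had 35.3, 33.4 and 31.9 CPM with EZH2i, 43.2, 44.3 and 44.6 CPM with CBPi, 56.3, 53.8 and 57.8 CPM with FSK, and 39.6, 44.3 and 47.6 CPM at baseline. EZH2i libraries were below baseline, FSK libraries above it, and CBPi libraries within it, and the log2 fold changes were -0.39, 0.35 and 0.01. MRPS18C showed the same order, with 22.2 ± 0.914 CPM with EZH2i, 26.2 ± 2.31 CPM with CBPi, 32.6 ± 4.1 CPM with FSK and 25.7 ± 1.88 CPM at baseline (SD, n = 3). Its rise with FSK passed (0.34, adjusted p = 0.00189), and its fall with EZH2i (-0.21, adjusted p = 0.0399) did not pass without baseline replicate 2 or 3, or without any 1 of the EZH2i libraries. MRPS18A differed from both: it fell by 0.38 with EZH2i and by 0.35 with CBPi and was at -0.02 with FSK (adjusted p = 0.827). Genes on the opposite strand cover 40.2% of the exonic bases of MRPS18C and 47% of those of MRPS18A, and the strand setting of the counting is not given in the sources used here. ABRAXAS1, which overlaps MRPS18C, averaged 6.82 to 14 CPM by group. It was at 0.2 with EZH2i (adjusted p = 0.163), 0.47 with CBPi and -0.57 with FSK. RSPH9, which overlaps MRPS18A, averaged at most 0.0624 CPM in any group. The effect of these overlaps on the counts was not tested.

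Of the 4 members that did not pass with EZH2i, 3 belong to the small subunit and MRPS30 to the large one. MRPS30 (mL65) had 72.2, 72.8 and 76.3 CPM with EZH2i, 79.8, 72.4 and 84.5 CPM with CBPi, 92.9, 87.3 and 98.5 CPM with FSK, and 73.2, 72.1 and 80.2 CPM at baseline. Its EZH2i and CBPi libraries overlapped baseline and its FSK libraries lay above it (0.31, adjusted p = 0.000227). MRPS10, MRPS5 and MRPS25 were the other members that did not pass with EZH2i, at -0.1, -0.12 and -0.15 (adjusted p = 0.155, 0.0683 and 0.0531). In a fit of only the EZH2i and baseline libraries all of these 3 passed as lower. In a fit with each library's trend over gene length removed, MRPS5 and MRPS25 passed as lower. MRPS10 did not pass there with EZH2i (0.00333, adjusted p = 0.966) and passed as higher with CBPi (0.15, adjusted p = 0.0324). MRPS21 and MRPS16 did not pass with EZH2i in that fit (adjusted p = 0.107 and 0.252). MRPS21 (bS21m) was the only member that rose with CBPi. It had 67.2, 68.7 and 69.4 CPM with EZH2i, 82.9, 97.3 and 89.8 CPM with CBPi, 94.6, 84.9 and 87.3 CPM with FSK, and 74.8, 82.9 and 82.2 CPM at baseline. One CBPi value equalled the highest baseline value, and the CBPi call (0.17, adjusted p = 0.0164) did not pass without baseline replicate 1 or without CBPi replicate 2, at 0.12 and 0.1. Among the large-subunit genes MRPL52, MRPL33, MRPL45, MRPL42 and MRPL10 did not pass with CBPi, at 0.06, -0.07, -0.08, -0.05 and -0.11. With the trend over gene length removed MRPL42 passed as lower with CBPi (-0.25, adjusted p = 0.00185).

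Set against each other, EZH2i libraries had lower levels than CBPi libraries in 24 of the 78 genes and higher levels in 3, where 22.2% of all genes were lower and 21.7% higher. The median difference was -0.12, and the differences ranged from -0.43 to 0.45, where 1.33% of all genes were lower and 3.55% higher by the test against 1.5-fold. MRPS6 (bS6m) stood out in the other direction: it had 19.8, 18.3 and 17.6 CPM with EZH2i, 13.6, 13.3 and 13.7 CPM with CBPi, 20, 17.3 and 18.7 CPM with FSK, and 23, 23.2 and 24.3 CPM at baseline. CBPi libraries were the lowest of all 4 groups and baseline libraries the highest, without overlap. The log2 fold change of EZH2i over CBPi was 0.45 (adjusted p = 2.94e-05), with -0.34 for EZH2i and -0.79 for CBPi against baseline. Next to MRPL1, MRPS9 (uS9m), whose bacterial homologue contacts the tRNA in the peptidyl site, was the third member that was higher with EZH2i than with CBPi, by 0.19 (adjusted p = 0.0294). Without EZH2i replicate 3, CBPi replicate 1 or CBPi replicate 3 the count of such members was 1. MRPL54, MRPS21, MRPS18B, MRPL52 and MRPS33 had the largest differences in the main direction, at -0.43, -0.4, -0.39, -0.35 and -0.34.

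FSK gave no common direction. The largest rise was that of MRPL2 (uL2m), a core protein of the large subunit. MRPL2 had 25, 25.5 and 23.4 CPM with EZH2i, 26.3, 26.7 and 27.6 CPM with CBPi, 51.4, 51.1 and 46 CPM with FSK, and 35.9, 36.0 and 37.6 CPM at baseline. No groups overlapped: FSK libraries lay above baseline (0.44, 1.36-fold, adjusted p = 1.46e-06), CBPi libraries below it (-0.44) and EZH2i libraries lowest (-0.57). After it, MRPS18B, MRPS18C, MRPL52, MRPS30, MRPS25, MRPS15, MRPS22, MRPL21 and MRPL32 had the largest rises with FSK, from 0.35 to 0.23. MRPL32, a highly expressed large-subunit gene, had 214, 191 and 204 CPM with FSK against 168, 170.0 and 182 CPM at baseline, with no overlap.

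The falls with FSK were led by MRPL11 and MRPL33, both at -0.41, followed by MRPL27, MRPS14, MRPS6, MRPL48, MRPS9, MRPL43, MRPS33 and MRPL22, from -0.38 to -0.23. MRPL33 (bL33m) had 26.6, 25.2 and 26.7 CPM with EZH2i, 27.8, 35.7 and 29.9 CPM with CBPi, 26.7, 23.7 and 23.7 CPM with FSK, and 31.6, 33.5 and 33.0 CPM at baseline. It was the only member that was higher with CBPi than with FSK (0.33, adjusted p = 0.000948). Its fall with FSK (adjusted p = 0.000189) exceeded its fall with EZH2i (-0.32), a difference between those groups of 0.08 that did not pass (adjusted p = 0.365). BABAM2, which covers 21.1% of its exonic bases on the same strand, was at 0.45 with EZH2i, 0.71 with CBPi and -0.35 with FSK. MRPL43 shares 32.7% of its exonic bases with SEMA4G on the opposite strand, a gene that was at -2.31, -1.6 and 0.86 in the same comparisons, while MRPL43 was at -0.75, -0.69 and -0.25.

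The FSK counts depended on single libraries more than those of the inhibitors did. The number of members lower with FSK was 10 without baseline replicate 3 and 11 without FSK replicate 2, and the number higher was 13 without FSK replicate 1. Against FSK instead of baseline, EZH2i lowered 73 of the 78 genes (all genes, 31.3% lower and 30.3% higher) with a median of -0.52, and CBPi lowered 69 and raised 1 (all genes, 29.5% and 29.3%) with a median of -0.43. By more than 1.5-fold, EZH2i was lower than FSK in 15 of the 78 members (all genes, 7.81% lower and 10.7% higher). CBPi was lower than FSK in 6 of the 78, near the share of all genes that were lower (6.92%, with 8.33% higher). The largest differences of EZH2i from FSK were those of MRPS28 (-1.45), MRPL16 and MRPL54 (both -1.07) and MRPL2 (-1.01), and those of CBPi from FSK were MRPS28 (-1.16), MRPL2 (-0.88) and MRPL16 (-0.82).

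Genes for 5 proteins of the mitochondrial ribosome that carry other symbols were also measured. DAP3, a GTP-binding small-subunit protein, AURKAIP1, CHCHD1, PTCD3, which binds mRNA at the small subunit, and GADD45GIP1 of the large subunit all fell with EZH2i, by 0.27, 0.42, 0.56, 0.61 and 0.61 on the log2 scale. With CBPi the last 4 fell, by 0.63, 0.59, 0.24 and 0.5, and DAP3 was at 0.03 (adjusted p = 0.526). With FSK CHCHD1 and GADD45GIP1 fell, by 0.21 and 0.25, and DAP3 rose by 0.15. Leaving out 1 library at a time left 0 to 1 of the falls, and with library size only 0 of the 5 rose. Of all genes 28.3% fell with EZH2i, 29% fell with CBPi, and 25.1% fell and 25.5% rose with FSK.

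Factors that build the ribosome or modify its rRNA changed less uniformly. Of 27 such genes 17 fell and 1 rose with EZH2i (median -0.31), 15 fell and 4 rose with CBPi (median -0.16), and 1 fell and 12 rose with FSK (median 0.12). The shares of all genes were 28.3% lower and 29.5% higher with EZH2i, 29% and 29.8% with CBPi, and 25.1% and 25.5% with FSK. With library size only, 2 of these genes fell and 6 rose with FSK. TRUB2, a pseudouridine synthase of mitochondria, had 65, 71.9 and 65.6 CPM with EZH2i against 122, 132 and 143 CPM at baseline, a log2 fold change of -0.97. DDX28, an RNA helicase of large-subunit assembly, fell by 0.88 with EZH2i, and MRM3, an rRNA methyltransferase, by 0.71. NGRN rose with both inhibitors (0.2 and 0.5), although its EZH2i rise did not pass with the trend over gene length removed (0.09, adjusted p = 0.104). TFB1M, the dimethyltransferase of the small-subunit rRNA, had 18.6, 16 and 16 CPM with FSK against 7.66, 7.8 and 9.03 CPM at baseline, with no overlap. Its log2 fold change of 1.05 (adjusted p = 9.54e-08) was past the range of the 78 ribosomal protein genes with FSK, whose highest value was 0.44.

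Translation factors moved in both directions under CBPi. Of 19 tested, 13 fell with EZH2i (median -0.31), 8 fell and 6 rose with CBPi (median -0.12), and 1 fell and 10 rose with FSK (median 0.12). Of all genes 28.3% fell with EZH2i, 29% fell and 29.8% rose with CBPi, and 25.1% fell and 25.5% rose with FSK, so the share of factors that rose with CBPi was near that of all genes. With library size only, 4 fell and 8 rose with FSK. TSFM, the exchange factor of the mitochondrial elongation factor TUFM, had 23.1, 23 and 22.1 CPM with EZH2i, 26.7, 26.3 and 27.1 CPM with CBPi, 43.4, 41.3 and 42.0 CPM with FSK, and 41.7, 46.7 and 47 CPM at baseline. Both inhibitor groups lay below the other groups, at -0.99 (adjusted p = 9.7e-12) and -0.76 (adjusted p = 5.45e-10), and TUFM itself was at -0.52 and -0.28. MTIF2, the initiation factor, GUF1, a translational GTPase, and METAP1D, which removes the initiator methionine, rose with CBPi by 0.3, 0.35 and 0.45, with EZH2i values of 0.04, 0.01 and 0.09 (adjusted p = 0.625, 0.915 and 0.405). GFM2, which helps to recycle ribosomes, fell by 0.81 with EZH2i and by 0.18 with CBPi. MTRF1L, a release factor, had the largest rise of the factors with FSK, at 0.5.

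**Figure D3:**
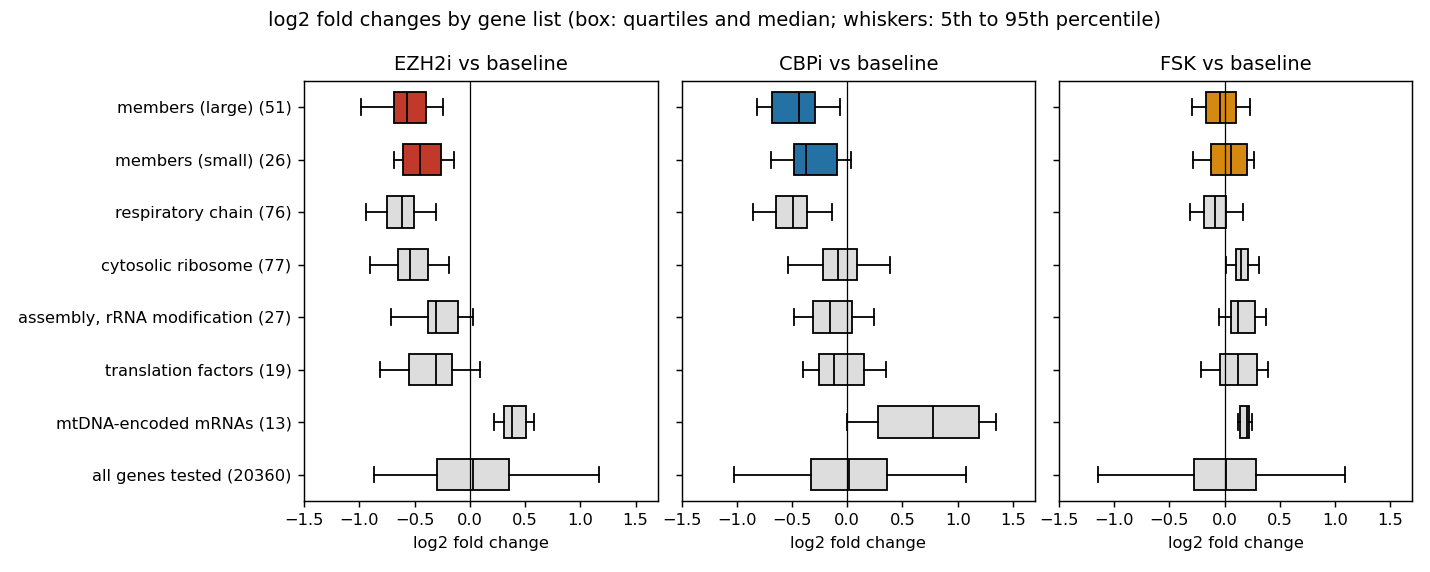
Box plots of log2 fold changes against baseline (quartiles and median, whiskers from the 5th to the 95th percentile) for the members of each subunit, related gene lists and all genes tested, with the number of genes in brackets. The member boxes lie left of 0 with EZH2i and CBPi and straddle 0 with FSK, while the cytosolic ribosome box is left of 0 with EZH2i only and that of mitochondrially encoded mRNAs right of 0.

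Cytosolic ribosomal protein genes also fell with EZH2i, and fewer of them fell with CBPi. Of 77 such genes 73 (94.8%) fell with EZH2i (median -0.54, against -0.53 for the members), where 28.3% of all genes fell. With CBPi 30 (39%) fell and 15 (19.5%) rose (median -0.08, against -0.4), where 29% of all genes fell and 29.8% rose. With FSK 39 (50.6%) rose (median 0.15, against -0.02), where 25.5% of all genes rose. The FSK count was 20 without baseline replicate 1 and 21 without FSK replicate 1. With library size only it was 18, where 20.2% of all genes rose. Of 76 nuclear genes of the respiratory chain, 75 (98.7%) fell with EZH2i (median -0.61) and 70 (92.1%) with CBPi (median -0.5). The summed level of the cytosolic set was 0.706-fold of baseline with EZH2i and 0.953-fold with CBPi, and that of the respiratory chain set 0.635-fold and 0.693-fold. No test of the difference between these lists was made.

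**Figure D4:**
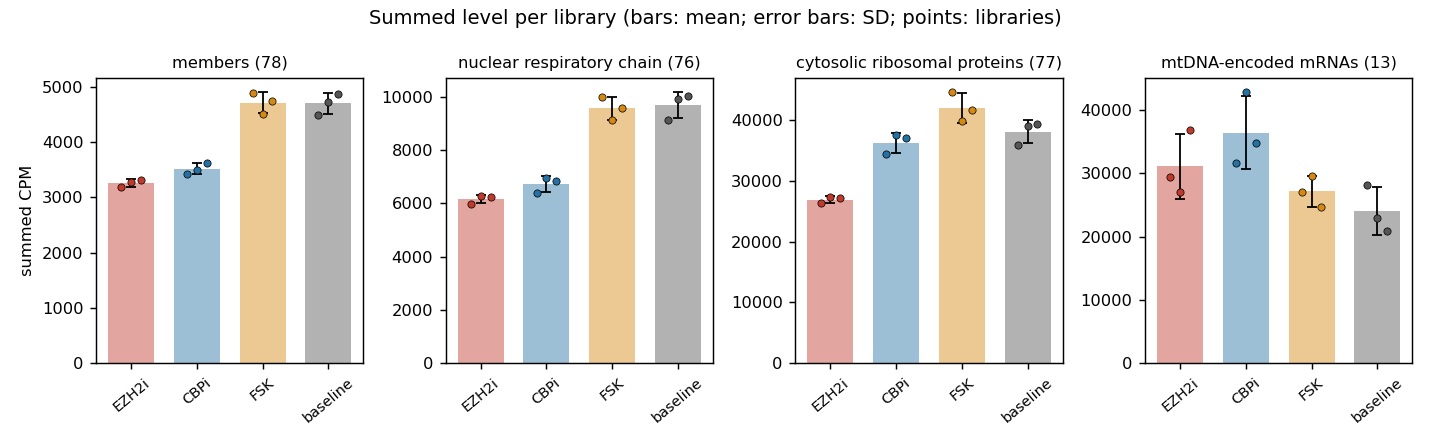
Summed CPM per library of the 78 genes and of 3 related sets, with group means (bars) and SD. The members and the nuclear respiratory chain genes are low with EZH2i and CBPi, and the cytosolic ribosomal proteins with EZH2i. The mean of the mitochondrially encoded mRNAs is highest with CBPi, at 36449 CPM against 23988 CPM at baseline. Their CBPi libraries (31642 to 42877 CPM) overlap the EZH2i libraries (27026 to 36916 CPM), which overlap baseline (20801 to 28182 CPM).

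Several RNAs that mitochondrial DNA encodes rose with the inhibitors. Of the 13 mRNAs 8 (61.5%) rose with CBPi and 5 (38.5%) with EZH2i, where 29.8% and 29.5% of all genes rose. The EZH2i count was 2 without baseline replicate 2, baseline replicate 3 or EZH2i replicate 3, and 8 without baseline replicate 1. With no filter on low counts 13 were called higher with EZH2i, with limma voom or the length trend removed 10, and in a fit of only the EZH2i and baseline libraries 1. With FSK 0 of the 13 passed by edgeR (also 0 at an unadjusted p under 0.05), by DESeq2 or by limma voom, whereas 12 were called higher with no filter. MT-ND2 rose by 1.83 with CBPi (adjusted p = 8.1e-06) and by 0.65 with EZH2i (adjusted p = 0.00594) on the log2 scale, while MT-CO1 was at -0.34 and 0.22 (adjusted p = 0.119 and 0.308). With CBPi MT-CO1 was called lower with no filter, with limma voom (adjusted p = 0.0242) and without CBPi replicate 2 (-0.49, adjusted p = 0.0487). MT-RNR2, the large-subunit rRNA, had 4470.0, 3830.0 and 4990.0 CPM with EZH2i, 2890.0, 3670.0 and 3140.0 CPM with CBPi, 2350.0, 2290.0 and 1920.0 CPM with FSK, and 2350.0, 2020.0 and 1680.0 CPM at baseline. It was higher in every inhibitor library than in any baseline library, with log2 fold changes of 1.14 with EZH2i (adjusted p = 0.000178) and 0.68 with CBPi (adjusted p = 0.004). MT-RNR1, the small-subunit rRNA, was at -0.12 with EZH2i and -0.13 with CBPi (adjusted p = 0.577 and 0.55), and both were called lower with no filter (adjusted p = 0.0176 and 0.0122). The libraries were made from polyadenylated RNA, which holds rRNAs of mitochondria only in part, so these levels are not levels of whole rRNA.

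Gene length moved with the log2 fold changes of the inhibitors. Over 12813 genes of at least 5 CPM, Spearman's rho of log2 fold change with gene length was 0.36 with EZH2i, 0.29 with CBPi and 0.01 with FSK, across genes, which are not independent replicates. Over the 78 members it was 0.25 with EZH2i, 0.23 with CBPi and 0.24 with FSK. The members are short, with a median length of 2501 bases against 5072 bases for these genes. Among genes of up to 2702 bases, the shortest of 5 bins of equal size, the median was -0.27 with EZH2i and -0.22 with CBPi, and the 43 members there had medians of -0.53 and -0.44, with 41 and 37 of them below the median of that bin. In a fit with each library's trend over gene length removed, 74 members were lower with EZH2i (median -0.44) and 66 with CBPi (median -0.35), and with FSK 18 were lower and 21 higher. That fit was added after the trend had been seen.

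**Figure D5:**
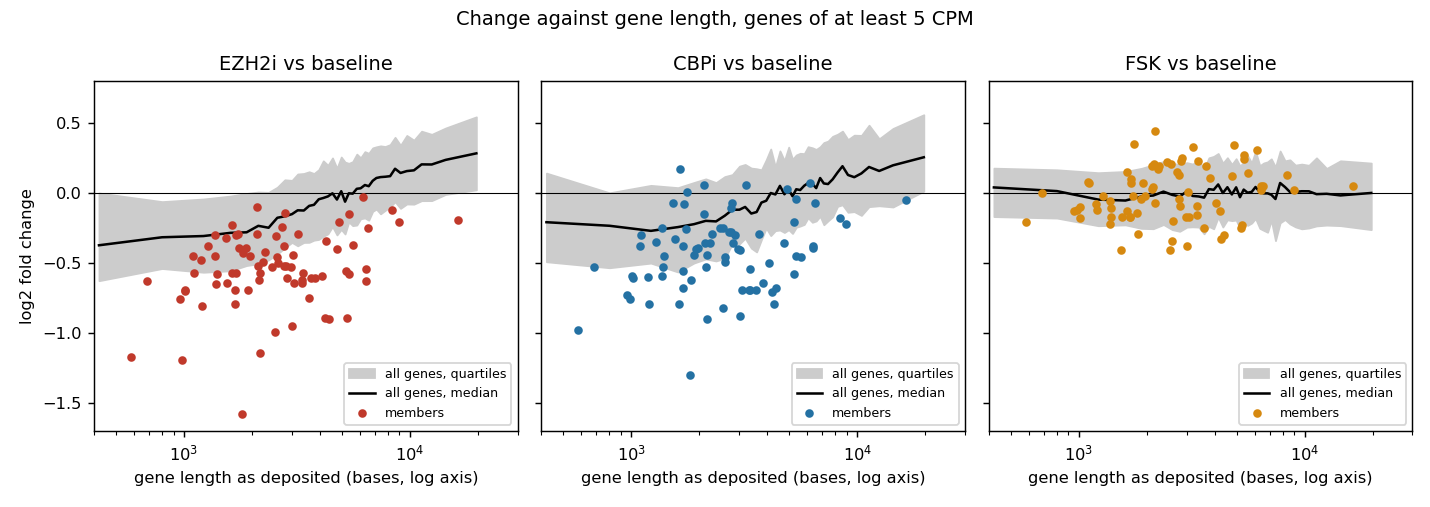
log2 fold change against baseline by deposited gene length (log axis, bases) for the 78 genes (points) and for 12813 genes of at least 5 CPM (median line and quartile band). The line rises with length with EZH2i and CBPi and is flat with FSK, and most member points lie under it with EZH2i and CBPi.

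Counting could affect some of the values above. Of the 78 genes 37 share no exonic base with another annotated gene, and 10 share more than 25% of theirs. Of the 79 pseudogene rows 24 had any count, and 6 had more than 1% of the counts of their parent gene, the highest being MRPS31P4 at 21.2% of MRPS31.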

How the data were processed

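The deposited table holds estimated counts per gene, part of them fractional, and the gene length in bases that the counting program writes. STAR, featureCounts and the build hg38 are named per the submitters' processing notes. The versions, strand setting and treatment of reads with several matches were not stated in the labels or the table. The libraries were made from polyadenylated RNA, per the labels' protocols.

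Counts were rounded to whole numbers. R 4.3.3 and edgeR 4.0.16 were used, with filterByExpr, TMM scaling and 1 robust quasi-likelihood fit of all 12 libraries, which left 8 residual degrees of freedom. P-values were adjusted by the Benjamini-Hochberg method over 20360 of 60617 genes. Errors after ± are SD over 3 libraries for CPM and SE, the absolute log2 fold change divided by the square root of F, for log2 fold changes. Changes beyond 1.5-fold were tested with glmTreat. The fit was tested on simulated data before use. It recovered 28 of 50 genes changed by 1.2-fold, 49 of 50 at 1.4-fold and 50 of 50 at 1.75-fold and at 2.5-fold. Of its 188 calls 11 were false. Those data had the same spread for every gene and far fewer changed genes than the real data, so they do not measure the error of the calls here.

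The members, gene lists and tests were chosen with earlier results of these data known. Members were named by rule: the 10 largest falls and rises among those past the threshold in each comparison with baseline, those called against the main direction, the 3 largest changes that did not pass, the 5 largest in each direction between treatments, the 5 highest and lowest levels per length, and MRPS36, the MRPS18 paralogues, MRPS30, MRPL12, MRPL58, MRPS6, MRPL33 and MRPL41. Replicate numbers were given in accession order, only as names. Biotypes and overlaps came from GENCODE 29 and promoters from RefSeq (GRCh38.p14). The alternatives were RLE, upper-quartile and library-size scaling, other filters, limma voom (limma 3.58.1), DESeq2 1.42.0, a fit of only the 2 groups compared, and each library left out.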

Additional observations from a re-analysis of the deposited data

How the results depend on the processing

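In the 3 comparisons with baseline no called value of a named member changed sign under the alternatives run (single members were not rerun between treatments), and the medians with EZH2i and CBPi stayed below 0 in all of them, while the FSK median ranged from -0.05 to 0.01 with 1 library left out. With the trend over gene length removed, a fit chosen after seeing the data, the median with EZH2i was -0.44, 2 members rose with CBPi, 5 were higher with EZH2i than with CBPi and 1 was higher with EZH2i than with FSK, and the medians against FSK were -0.45 for EZH2i and -0.38 for CBPi. With library size only, 34 members were lower and 11 higher with FSK at a median of -0.09, where the median over all genes was -0.05. The same scaling gave 5 members higher with EZH2i than with CBPi, and medians against FSK of -0.43 for EZH2i and -0.36 for CBPi. Upper-quartile scaling also gave 5 members higher with EZH2i than with CBPi. The causes were not tested beyond the scaling itself. Leaving out 1 library at a time gave 72 to 74 members lower with EZH2i, 63 to 66 lower and 0 to 1 higher with CBPi, 10 to 20 lower and 13 to 22 higher with FSK, and 1 to 3 higher with EZH2i than with CBPi. The median of EZH2i against FSK then ranged from -0.55 to -0.49, and that of CBPi against FSK from -0.46 to -0.39. No paired analysis was possible because the labels give the libraries no replicate numbers, and the numbers used here only name libraries in accession order. With 3 libraries a group, a member that did not pass is not shown to be unaffected.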
